A study of Mus musculus with 14 samples.

Results

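The genes described here encode the proteins of the cytosolic ribosome. They were taken as the rows whose symbol is Rpl, Rps or Rplp followed by a number, with at most a letter and a second number after it, and whose mean over the 10 time-course libraries was at least 1 TPM (the share of a library that a gene takes after division by transcript length, scaled so that all genes sum to 1000000). Of 54332 rows, 88 carried such a symbol and 82 passed the minimum, 48 of them for the large (60S) subunit and 34 for the small (40S) subunit. The other 6 rows, *Rpl10l*, *Rpl32l*, *Rpl39l*, *Rpl3l*, *Rpl6l* and *Rps3a3*, had means between 0.00908 and 0.529 TPM. Among the 82, *Rps4l*, *Rps12l1* and *Rps3a2* are annotated as pseudogenes in GENCODE M21 (mouse genome build GRCm38), and the other 79 as protein coding.

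RNA was measured in epidermal stem cells (EpdSCs) of back skin before SOX9 induction (D0) and after 1, 2, 6 or 12 weeks of it (W1, W2, W6, W12), with 2 libraries at each timepoint. The mice were of the CD1 strain, labelled male, and carried *K14rtTA* and *TRE-myc-Sox9* in every group, D0 included. In this system the keratin 14 promoter, active in basal keratinocytes, drives a transactivator that needs doxycycline (DOX) to switch on MYC-tagged SOX9. Mice were 21 days old at D0, 28 at W1, 35 at W2 and 63 at W6, with DOX injected at day 21 and then given in the feed. W12 came from newborn skin grafted onto immunocompromised female *Nude* hosts and induced once the grafts had healed. Each group was sorted as cells high for CD49f and Ly6A and negative for CD34, CD31, CD45, CD117 and CD140a. No uninduced library of a later age and no ungrafted W12 library was analysed here, so SOX9 time, age and, at W12, grafting cannot be told apart.

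Ribosomal proteins are needed in near-equal amounts, most being present as a single copy per ribosome, and ribosome number is known to limit how much protein a cell can make. Most of their mRNAs begin with a 5′ terminal oligopyrimidine (TOP) tract, a cytosine followed by a run of pyrimidines, through which mTORC1 and LARP1 are known to control their translation, so mRNA level and protein output need not move together. In skin, hair follicle stem cells are known for low protein synthesis that rises as their progeny divide. Ribosomal protein mRNAs have also been copied back into the mouse genome many times, leaving processed pseudogenes whose sequence can be almost or wholly that of the parent mRNA.

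Some features of the libraries bear on the members. The transgene row stood at 89.6 and 45.6 TPM at D0 and between 606 and 3414 TPM in the 8 later libraries. D0 replicate 2 went against its male label, with *Xist* at 4.61 and *Ddx3y* at 0.0278 TPM, and both W12 libraries held *Xist* (5.51 and 3.50 TPM) beside *Ddx3y* (11.0 and 12.9 TPM). For the 82 genes, their sums with copies and related gene lists, counts of calls and medians at W6 and W12 are therefore also given without D0 replicate 2, as are most of the called genes named. There 10% of all genes were then higher and 7.96% lower at W6, and 11.6% higher and 16.9% lower at W12. The summed TPM of 18 immediate-early and dissociation stress genes was 35619 and 58448 at D0 and 6844 to 15163 later. The 9 basal keratinocyte markers summed to 57394 and 60076 TPM at D0, 35264 and 35939 at W6, and 44296 and 46149 at W12, without overlap. The 7 suprabasal markers summed to 1912 and 5785 TPM at D0, 11938 and 12516 at W6, and 11942 and 13558 at W12, most of it *Krtdap*, while *Lor* had 15.4 and 19.4 TPM at D0 and 2.00 and 2.05 at W12. Immune markers reached 234 and 255 TPM at W12, against at most 54.8 before it, of which 232 and 252 TPM stood on the 3 class II genes *Cd74*, *H2-Aa* and *H2-Ab1*. The other 8 immune markers, *Ptprc* (CD45) among them, summed to 1.26 to 4.74 TPM in every library. Endothelial markers summed to 54.5 and 117 TPM at W12, against at most 2.23 before it. The 7 fibroblast markers summed to 1.71 and 4.11 TPM at D0, 1.69 and 52.2 at W6, and 13.8 and 28.1 at W12. Of these, *Dcn* alone held 51.2 TPM in W6 replicate 2 and 13.2 and 27.2 at W12, while each of the other 6 was at most 0.550 TPM at W6 and W12. The 7 melanocyte markers summed to 1.34 and 5.08 TPM at D0, 4.79 and 12.1 at W6, and 11.8 and 13.4 at W12. The part of these shifts in the results below was not tested, and in bulk RNA a change in the share of a cell type and a change in RNA per cell cannot be told apart.

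Ribosomal protein genes took 6.48 to 8.50% of the EpdSC transcriptome. Summed over the 82 genes, they held 7.24% and 6.48% of all TPM at D0, 7.20% and 6.56% at W1, 7.08% and 7.59% at W2, 7.63% and 7.95% at W6, and 8.50% and 7.51% at W12. Both W6 and both W12 libraries were above both D0 libraries, while the ranges of W1 and W2 overlapped that of D0. Relative to the D0 mean, W1 stood at 1.00 (0.936 under median-ratio scaling), W2 at 1.07, W6 at 1.13 and W12 at 1.17, against SDs at D0 and W12 of 0.536 and 0.705 percentage points (n = 2 each). With D0 replicate 1 alone as the base, these became 0.950, 1.01, 1.08 and 1.11. The sums carry no test, and their differences between timepoints were not shown to exceed the spread between replicates. The ratio of large-subunit to small-subunit TPM lay between 1.42 and 1.46 in all 10 libraries.

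**Figure D1:**
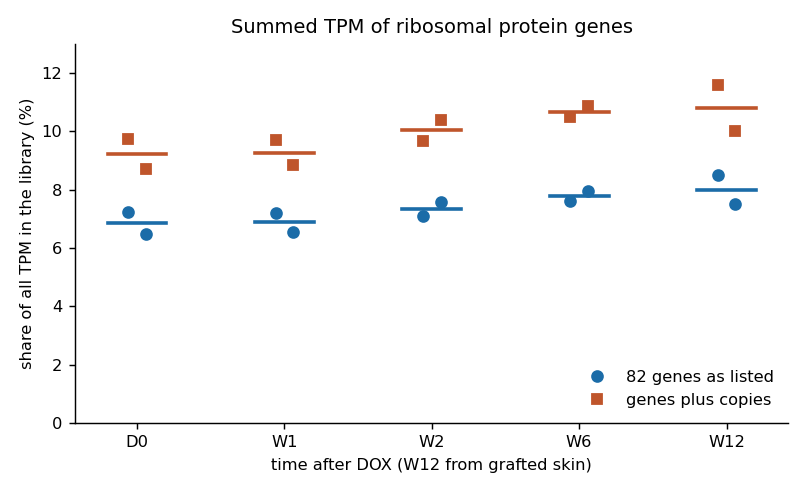
Share of all TPM (vertical axis, percent, from 0) taken by the 82 ribosomal protein genes as listed (circles) and with their near-identical copies added (squares) in each library at D0, W1, W2, W6 and W12 (horizontal axis), with bars at the mean of 2 libraries. The listed genes lie between 6.48 and 7.24% at D0 and between 7.51 and 8.50% at W12, and the copies added a near-constant part of 25.05 to 27.3% of the sum.

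Levels of single genes in mean TPM, a unit that is already divided by transcript length, lay around a median of 690 TPM. Among the highest were *Rpl41*, which encodes the shortest protein of the set, at a mean of 2961 TPM, and *Rpl13*, of the large subunit, at 2768. The lowest were *Rpl5*, which binds 5S rRNA, at 12.2 TPM, and the pseudogenes *Rps12l1* at 29.2 and *Rps4l* at 29.3. Of the TPM of *Rpl5* and its near-identical copies, 97.6% stood on the copies. In all, 76 genes had a mean above 100 TPM. The gap between the 2 replicates of a timepoint, as each gene's median over timepoints, had a median of 0.14 on the log2 scale. Each gene's widest gap had a median of 0.29, beside median changes against D0 of 0.27 at W6 and 0.31 at W12. At their widest, 4 genes exceeded 1. These were *Rps12l1* (5.43 at W1), *Rps2* (4.77 at W2), *Rpl30* (1.34 at W6) and *Rps4l* (1.05 at D0). Gaps mostly shared a sign within a timepoint: 70 of 82 genes were higher in D0 replicate 1 than in replicate 2 and 72 of 82 were higher in W12 replicate 1.

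**Figure D2:**
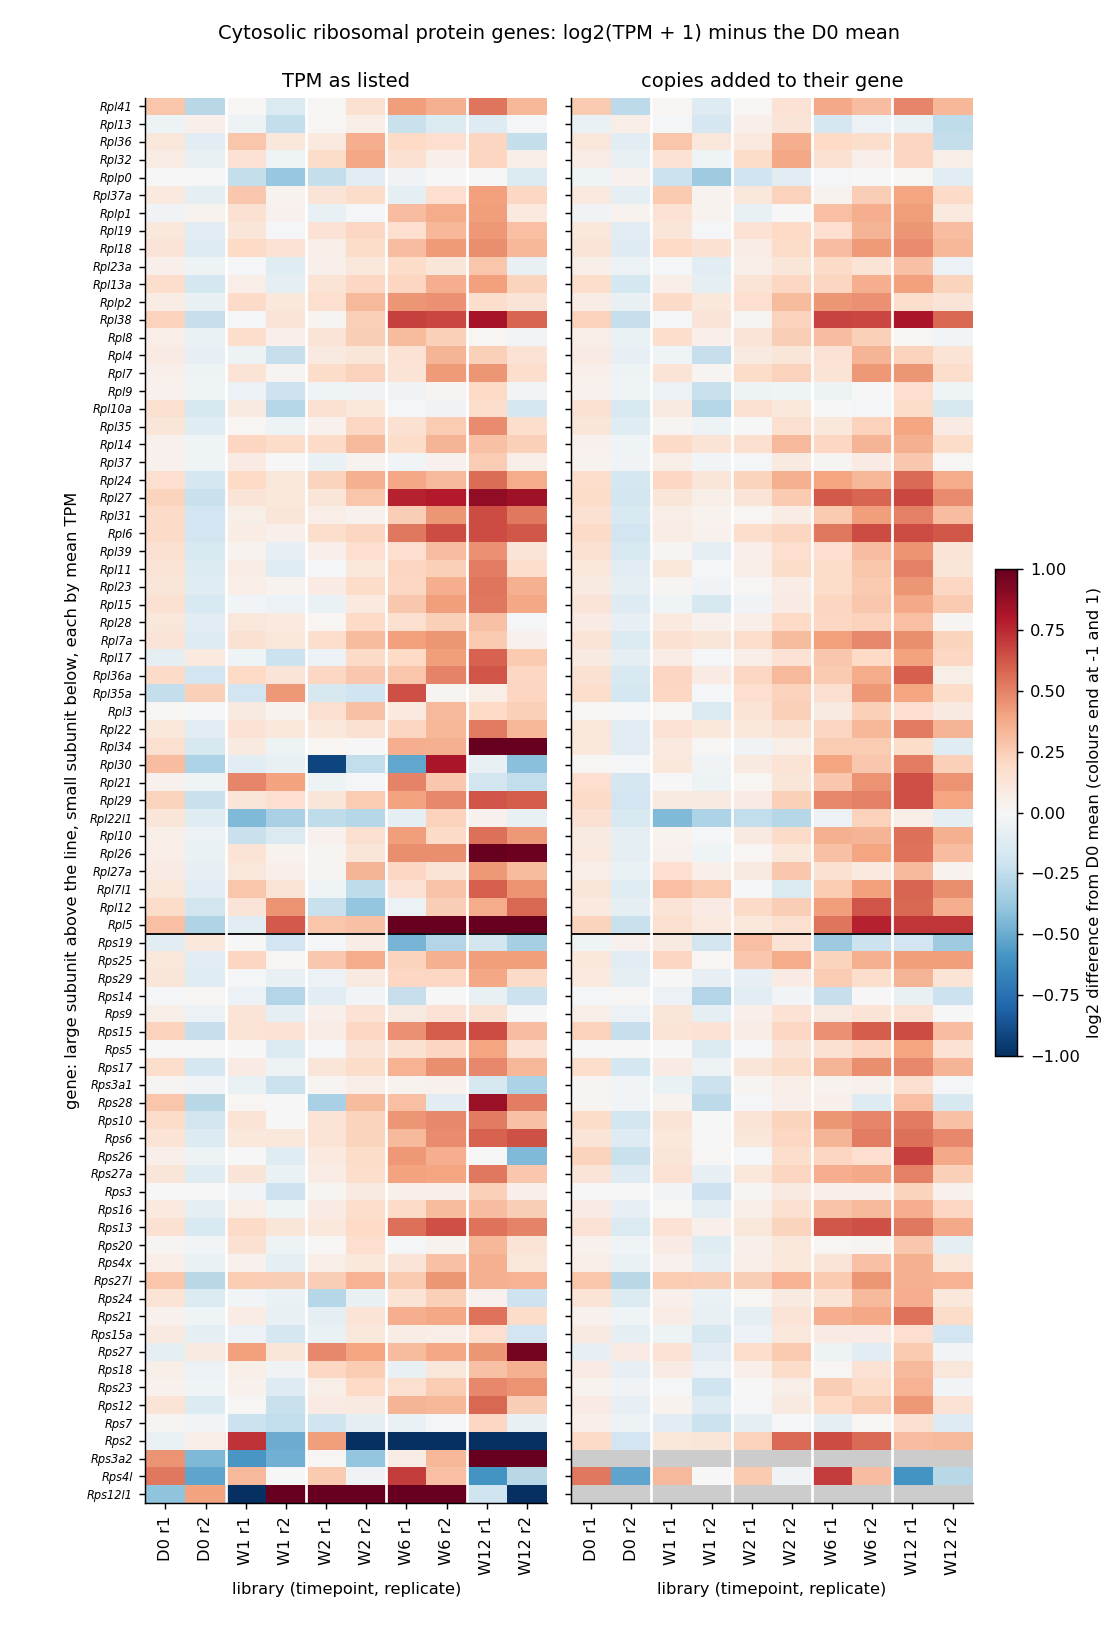
Heat maps of 79 of the 82 genes (rows, large subunit above the line and small subunit below, each by falling mean TPM) in the 10 libraries (columns), coloured by log2(TPM + 1) minus the D0 mean, with colours ending at −1 and 1. On the left, TPM are as listed, and on the right the TPM of near-identical copies are added, grey marking *Rps3a2* and *Rps12l1*, which are then part of *Rps3a1* and *Rps12*. Most rows move by less than 0.5, and the dark cells of *Rps2*, *Rpl34* and *Rpl30* on the left are absent on the right.

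Genes were tested with limma on log2(TPM + 1) in a single fit of all 10 libraries, with Benjamini-Hochberg adjustment over the 13110 genes whose mean was at least 1 TPM. Log2 changes below are on this scale and a gene is said to rise or fall when its adjusted *P* was under 0.05.

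At W1, no ribosomal protein gene rose or fell, against 9.89% of all genes tested, and 2 had an unadjusted *P* under 0.05 in limma. The median log2 change of the 82 genes was 0.05, beside 0.09 over all genes. It turned negative under median-ratio scaling (−0.06, beside 0.0042 over all genes). The same held after correction of each library for transcript length and GC content (−0.08, beside 0.0154 over all genes). Without D0 replicate 2 the median of the 82 genes was −0.08. The largest positive changes were those of *Rpl21* (0.45, limma adjusted *P* = 0.0629), *Rpl12* (0.29) and *Rps27* (0.27), and the most negative those of *Rps12l1* (−0.95), *Rps3a2* (−0.53) and *Rpl22l1* (−0.38, limma adjusted *P* = 0.159). *Rpl22l1*, the paralog of *Rpl22*, had 259 and 219 TPM at D0 and 175 and 191 at W1, so that its groups did not overlap. Libraries of 10 genes lay wholly above D0 and those of 10 genes wholly below, shares to be read against 34.4% and 20.7% of all genes.

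W2 gave the same count, with 0 genes past the threshold against 15.7% of all genes and 1 at an unadjusted *P* under 0.05 in limma. The median was 0.11, beside 0.06 over all genes, or −0.07 after the length and GC correction and 0.0054 without D0 replicate 2, and 66 of 82 changes were positive. Libraries of 21 genes lay wholly above D0 and those of 5 wholly below, against 35.1% and 26.6% of all genes. Leaving out D0 replicate 1 gave 2 calls and leaving out W2 replicate 1 gave 1, and at W1 leaving out D0 replicate 1 gave 1. The pseudogene *Rps12l1* had the most positive value (2.03, limma adjusted *P* = 0.418). *Rps27*, of the small subunit, had 0.44 (limma adjusted *P* = 0.150) and *Rps25* 0.32. *Rps2* (−1.96), *Rpl30* (−0.58) and *Rpl12* (−0.31) had the most negative values, and each turned positive once its copies were added (0.40, 0.11 and 0.22).

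At W6, 9 genes rose and 1 fell, which is 12.2% of the 82 against 32.4% of all genes tested (18.3% higher and 14.1% lower). Another 15 genes had an unadjusted *P* under 0.05 without passing the adjustment. The median log2 change was 0.27, beside 0.08 over all genes, and 73 of 82 changes were positive, although the median was −0.11 after the length and GC correction, under which 2 genes rose and 10 fell, against 17.6% and 17.5% of all genes. Without D0 replicate 2 the calls numbered 2 and the median was 0.16, without D0 replicate 1 the calls numbered 28, and without W6 replicate 1 or replicate 2 they numbered 4 and 3. Both libraries lay above both D0 libraries for 59 genes and below them for 4, against 35.4% and 27.1% of all genes. The changes were small, and 73 genes moved by less than 0.5.

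*Rpl38*, a large-subunit gene known for patterning defects in mutant mice, had 1039 and 754 TPM at D0, 880 and 969 at W1, 903 and 1041 at W2, 1419 and 1408 at W6, and 1566 and 1322 at W12. All 4 late libraries stood above the 6 early ones. Its log2 change was 0.67 ± 0.18 (SE) at W6 (limma adjusted *P* = 0.0236) and 0.70 ± 0.18 at W12 (limma adjusted *P* = 0.0152). *Rpl6*, also of the large subunit, had 520 and 398 TPM at D0, 480 and 471 at W1, 516 and 529 at W2, 657 and 718 at W6, and 716 and 702 at W12. Here too the late libraries did not overlap the early ones, with log2 changes of 0.59 ± 0.15 (limma adjusted *P* = 0.0181) and 0.64 ± 0.15 (limma adjusted *P* = 0.0098). *Rps13*, of the small subunit, rose by 0.60 at W6 and by 0.52 at W12, the latter turning to −0.19 after the length and GC correction. *Rplp2*, a P stalk protein, rose at W6 (0.45, limma adjusted *P* = 0.0332) with 1522 and 1535 TPM against 1177 and 1062 at D0, and stood at 1263 and 1223 TPM at W12, where its change of 0.15 did not pass. Other rises at W6 were those of *Rpl5* (1.28), *Rpl27* (0.78), *Rpl26* (0.47, or −0.05 after the length and GC correction) and *Rpl21* (0.38). Without D0 replicate 2, *Rpl27* (0.56, limma adjusted *P* = 0.0197) and *Rps13* (0.45, limma adjusted *P* = 0.042) still passed. *Rpl38* (0.44), *Rpl6* (0.40), *Rplp2* (0.38), *Rpl5* (0.98), *Rpl26* (0.40), *Rpl21* (0.34) and *Rps2* (−4.16) then did not, with limma adjusted *P* of 0.0931, 0.0548, 0.0783, 0.0698, 0.0684, 0.126 and 0.162. Of the genes named, *Rpl27* alone passed with each of the 4 libraries left out in turn. The most positive value at W6 was that of *Rps12l1* (2.18, limma adjusted *P* = 0.310), which did not pass. The only gene that fell was *Rps2* (−4.23, limma adjusted *P* = 0.0447), which is described with its copies. *Rps19*, the gene most often mutated in Diamond-Blackfan anaemia, had the next most negative value (−0.38, limma adjusted *P* = 0.102), with 2634 and 3058 TPM at D0 and 2059 and 2320 at W6. *Rpl13* followed at −0.18.

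At W12, 20 genes rose and 0 fell, or 24.4% of the 82, against 43% of all genes tested (17.9% higher and 25.1% lower). A further 13 had an unadjusted *P* under 0.05 in limma. The median log2 change was 0.31, beside −0.08 over all genes, and it was 0.41 under median-ratio scaling, 0.13 under quantile normalization and −0.26 after the length and GC correction, under which 4 genes rose and 25 fell, against 16.7% and 21.6% of all genes. Leaving out D0 replicate 2 left 9 rises and 1 fall, that of *Rps4l* (−0.96), with a median of 0.21, and leaving out W12 replicate 1 or replicate 2 left 7 and 9 calls. Without D0 replicate 1 the count was 38. Both libraries lay above both D0 libraries for 55 genes and below them for 5, against 32.8% and 41.9% of all genes. Of the 20 that rose, 14 were among the 48 genes of the large subunit and 6 among the 34 of the small. The medians of the 48 and the 34 were 0.31 and 0.30, or 0.22 and 0.21 without D0 replicate 2. The W6 and W12 comparisons share the D0 libraries, so their values are only set side by side. The rises of *Rps3a2* (6.91), *Rpl34* (1.61), *Rpl5* (1.22) and *Rpl26* (1.04) were the largest, and 66 of the 82 genes moved by less than 0.5. Smaller rises not described elsewhere were those of *Rpl29* (0.62), *Rpl31* (0.59), *Rpl10* (0.49), *Rps23* (0.47) and *Rpl15* (0.46), of which *Rpl31*, *Rps23* and *Rpl15* did not pass once near-identical copies were added (0.41, 0.16 and 0.32). The length and GC correction turned *Rpl10*, *Rpl31* and *Rps23* to −0.16, −0.0058 and −0.17.

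*Rps6*, the substrate of S6 kinase downstream of mTORC1, had 840 and 694 TPM at D0, 824 and 826 at W1, 842 and 894 at W2, 958 and 1060 at W6, and 1150 and 1189 at W12. Both W12 libraries were above all others, with a log2 change of 0.61 ± 0.14 (limma adjusted *P* = 0.00906), or −0.01 after the length and GC correction. *Rpl22* had 322 and 275 TPM at D0 and 427 and 375 at W12 (0.43 ± 0.14, limma adjusted *P* = 0.0324), and *Rpl24* had 602 and 479 TPM at D0 and 793 and 694 at W12 (0.47 ± 0.15, limma adjusted *P* = 0.0373). Both W12 libraries of each exceeded both D0 libraries, although the length and GC correction turned the changes to −0.39 and −0.24. *Rpl7l1*, a paralog of *Rpl7* that works in ribosome assembly, rose from 91.6 and 78.5 TPM to 128 and 116 (0.52 ± 0.15, limma adjusted *P* = 0.0205). Without D0 replicate 2, *Rps3a2* (6.46), *Rpl34* (1.46), *Rpl26* (0.97), *Rps27* (0.79), *Rpl27* (0.64), *Rps6* (0.48), *Rpl6* (0.45), *Rps23* (0.43) and *Rpl29* (0.39) still rose at W12. *Rpl5* (0.92), *Rpl38* (0.47), *Rpl10* (0.44), *Rpl7l1* (0.41), *Rpl31* (0.40), *Rps13* (0.37), *Rpl23* (0.32), *Rpl22* (0.31), *Rpl15* (0.31) and *Rpl24* (0.30) then did not pass, with limma adjusted *P* from 0.0574 to 0.140. Of the genes named, *Rps3a2*, *Rpl34*, *Rpl26* and *Rpl27* passed with each of the 4 libraries left out in turn. Other familiar members did not pass at any timepoint. *Rps14*, a gene of the 5q- syndrome, had 2056 and 2091 TPM at D0 against 1969 and 1782 at W12, and *Rpl10a* had 939 and 754 against 951 and 749, for log2 changes of −0.15 and 0.00. The W12 range of *Rps14* lay below that of D0, and that of *Rpl10a* overlapped it. *Rpl3*, at the peptidyl transferase centre, changed by 0.22, *Rpl13a*, of the translation-silencing GAIT complex, by 0.32 and *Rpl41* by 0.43, none past the threshold. At the negative end stood *Rps2* (−2.47, limma adjusted *P* = 0.176), *Rps12l1* (−1.93) and *Rps4l* (−0.43).

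Between later timepoints few genes moved. From W2 to W6, *Rpl5* (0.99) and *Rpl27* (0.58) rose and none fell, against 16.3% of all genes (7.99% higher and 8.31% lower), with limma adjusted *P* of 0.0476 and 0.0435. From W6 to W12, *Rps3a2* (6.70), *Rpl34* (1.25) and *Rpl26* (0.57) rose and *Rps26* (−0.61) and *Rpl21* (−0.60) fell, against 20.2% of all genes (6.66% higher and 13.5% lower). Without any 1 of the W2 and W6 libraries at most 1 gene passed from W2 to W6 (with W6 replicate 1 left out). With the copies added, 0 genes passed the limma test in either comparison, against 16.6% and 20.6% of all rows, with 9 and 1 at an unadjusted *P* under 0.05. The F test over the 4 contrasts with D0 was passed by 17 of 82 genes, against 57.5% of all genes tested (10 of 80 against 58.1% with copies added), with *Rps3a2*, *Rpl34*, *Rpl26*, *Rpl27* and *Rpl21* first. That count was 32 without D0 replicate 1, 19 without D0 replicate 2, 8 without W1 replicate 1, W12 replicate 1 or W12 replicate 2, 9 without W1 replicate 2 and 10 without W2 replicate 1 or W2 replicate 2. Highest means fell at W12 for 45 genes, at W6 for 25, at W2 for 8 and at W1 and D0 for 2 each.

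Sets within the ribosome were described by their members. Of the P stalk, which recruits translation factors, *Rplp0* had 2003 and 2022 TPM at D0 and 2022 and 1834 at W12 (−0.06), *Rplp1* had 1309 and 1380 against 1794 and 1435 (0.26), and *Rpl12*, at its base, had 35.5 and 27.2 against 40.6 and 46.8 (0.48), none past the threshold. Ribosomal proteins that bind the p53 inhibitor MDM2 when ribosome assembly is disturbed were read as a set of 4. Of these, *Rpl5*, *Rpl26* and *Rpl23* (0.44) rose at W12, against 17.9% of all genes higher. *Rpl23* turned to −0.15 after the length and GC correction and did not pass with copies added (0.33, limma adjusted *P* = 0.0912). *Rpl11*, with 517 and 430 TPM at D0 and 671 and 532 at W12, changed by 0.34 without passing. The median of the 4 at W12 was 0.74, or 0.62 without D0 replicate 2. Other ribosomal proteins are made as fusions to ubiquitin or a ubiquitin-like protein. Of these, *Fau* (0.39), which the symbol rule leaves out, rose at W12 but did not pass without D0 replicate 2 (0.34, limma adjusted *P* = 0.0890), and *Rps27a* had 0.40 (limma adjusted *P* = 0.0675). Of 20 genes linked to Diamond-Blackfan anaemia 2 rose at W6 and 5 at W12, with a median of 0.33 at W12, against 18.3% and 17.9% of all genes higher. Of the 6 ribosomal protein genes that the rule misses, 4 rose at W12, against the same 17.9% of all genes, and their median was 0.42. Of the 20, 0 and 2 rose at W6 and W12 in limma without D0 replicate 2, with medians of 0.17 and 0.22, and of the 6, 1 rose at W12, with a median of 0.29.

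Paralogs and their partners were compared side by side. *Rpl22l1* had 245 and 226 TPM at W12 against 259 and 219 at D0 (−0.02) while *Rpl22* rose. *Rps27l*, a p53-responsive paralog of *Rps27*, had 699 and 475 TPM at D0 and 736 and 732 at W12 (0.35, limma adjusted *P* = 0.155), and *Rps27* had 316 and 358 against 456 and 652 (0.70, limma adjusted *P* = 0.0173, or −0.08 after the length and GC correction). The gap between the D0 replicates of *Rps27l* was wider than its change. *Rpl36al* rose from 747 and 527 TPM at D0 to 951 and 1095 at W6 (0.70) and 1276 and 1148 at W12 (0.95, limma adjusted *P* = 0.00457), of which only the W12 rise passed without D0 replicate 2 (0.45 and 0.70, limma adjusted *P* = 0.0898 and 0.0162), and *Rpl36a*, its partner, had 408 and 313 TPM at D0 and 552 and 413 at W12 (0.42, limma adjusted *P* = 0.0997). *Rps4l* had 39.0 and 18.3 TPM at D0 and 17.4 and 21.9 at W12, *Rps4x* had 670 and 613 against 822 and 695 (0.24), *Rpl7* 791 and 734 against 1033 and 862 (0.31), and *Rpl39* 536 and 433 against 661 and 527 (0.29). *Rpl10l*, *Rpl39l* and *Rpl3l*, known for expression in germ cells or muscle, were below 1 TPM in every library. Whether a paralog and its partner changed differently was not tested.

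Several of the largest values above belonged to genes with near-identical copies elsewhere in the genome, between which short reads can be hard to assign. How reads were assigned was not tested. A search of GENCODE M21 transcripts found 1063 rows with at least 90% identity to 1 of 79 members over at least 50% of their length. Together these held 25.05 to 27.3% of the TPM of members and copies, near-constant over the 10 libraries. Of 80 genes with such a sum, 37 held at least 95% of it themselves and 21 held under 50%. A short read from a stretch without a difference matches parent and copy alike, as the coding sequence of the pairs described next shows. Each pair gives the parent and the copy from the same position of the alignment, 5′ to 3′, with the single base that differs in capitals.
Rpl34: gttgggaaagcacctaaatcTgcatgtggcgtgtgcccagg
Rpl34-ps1: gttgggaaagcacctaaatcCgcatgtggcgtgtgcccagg
Rps3a1: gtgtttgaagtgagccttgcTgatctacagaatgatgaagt
Rps3a2: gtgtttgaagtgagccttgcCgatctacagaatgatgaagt
Rpl26: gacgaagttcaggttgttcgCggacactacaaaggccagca
Gm15772: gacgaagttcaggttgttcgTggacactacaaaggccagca
Rpl21: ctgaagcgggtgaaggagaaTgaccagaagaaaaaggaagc
Gm10163: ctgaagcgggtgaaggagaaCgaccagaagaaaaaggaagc
The sequences are from the GENCODE M21 transcripts (GRCm38). Over the whole coding sequence, *Rpl34* (chr3:130726831-130730398, minus strand) and *Rpl34-ps1* (chr6:71124610-71124963, plus strand) differed at 2 of 351 bases. *Rps3a1* (chr3:86137940-86142702, minus strand) and *Rps3a2* (chr14:88123017-88123808, minus strand) differed at 4 of 792 bases. *Rpl26* (chr11:68901583-68906989, plus strand) and *Gm15772* (chr5:3236431-3236868, plus strand) differed at 2 of 435 bases, and *Rpl21* (chr5:146832890-146837032, plus strand) and *Gm10163* (chr9:88390837-88391317, plus strand) at 2 of 480. *Rpl5* and *Gm15500* did not differ over 891 coding bases, nor *Rps12* and *Rps12l1* over 396, nor *Rps27* and *Rps27rt* over 252.

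*Rps2*, a small-subunit protein near the mRNA entry, had the widest gap at W2, W6 and W12 between its change as listed and its change with copies. Its row had 437 and 478 TPM at D0, 756 and 324 at W1, 612 and 21.5 at W2, 21.3 and 25.7 at W6, and 224 and 29.5 at W12. The 4 lowest values were those of W2 replicate 2, both W6 libraries and W12 replicate 2, and the groups at W2 and W12 were split between replicates. Over the same libraries *Rps2-ps13*, a processed copy with 99.2% identity on chromosome X, had 1225 and 802 TPM at D0, 796 and 1205 at W1, 1087 and 2018 at W2, 1324 and 1496 at W6, and 349 and 931 at W12, and *Rps2-ps10*, at 99.4% identity, went from 433 and 320 at D0 to 1552 and 1193 at W6 and 1698 and 1345 at W12. Summed with all its copies, *Rps2* had 2122 and 1623 TPM at D0, 2923 and 2749 at W6 and 2299 and 2328 at W12. The direction at W6 thus turned from −4.23 to 0.61 (limma adjusted *P* = 0.0298), which was 0.42 and did not pass without D0 replicate 2 (limma adjusted *P* = 0.110).

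*Rpl34*, of the large subunit, had 255 and 204 TPM at D0, 243 and 220 at W1, 232 and 229 at W2, 294 and 292 at W6, and 804 and 609 at W12, where its change was 1.61 ± 0.17 (limma adjusted *P* = 0.000197). *Rpl34-ps1* had 1002 and 878 TPM at D0, 1096 and 1101 at W6 and 520 and 463 at W12. One row rose at W12 as the other fell, and their sum changed by 0.03 (limma adjusted *P* = 0.888). *Rps3a2* stood between 0.2 and 1.5 TPM in the 8 libraries up to W6 and at 241 and 201 at W12, while *Rps3a1* had 1149 and 1104 TPM at D0 and 1006 and 906 at W12. Summed, *Rps3a1* and its copies had 1152 and 1105 TPM at D0 and 1260 and 1117 at W12. *Rps26* had 833 and 778 TPM at D0, 1086 and 1037 at W6, and 810 and 593 at W12, and *Rps26-ps1* had 394 and 123, 137 and 143, and 876 and 773. As listed *Rps26* fell from W6 to W12, and summed it rose from D0 to W12 (0.53, limma adjusted *P* = 0.0449). *Rpl21* likewise fell from W6 to W12 as listed, with 374 and 320 TPM at W6 and 233 and 224 at W12, and summed rose from D0 to W12 (0.55, limma adjusted *P* = 0.0234). Neither sum passed without D0 replicate 2, with 0.31 for *Rps26* (limma adjusted *P* = 0.196) and 0.38 for *Rpl21* (limma adjusted *P* = 0.0864).

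**Figure D3:**
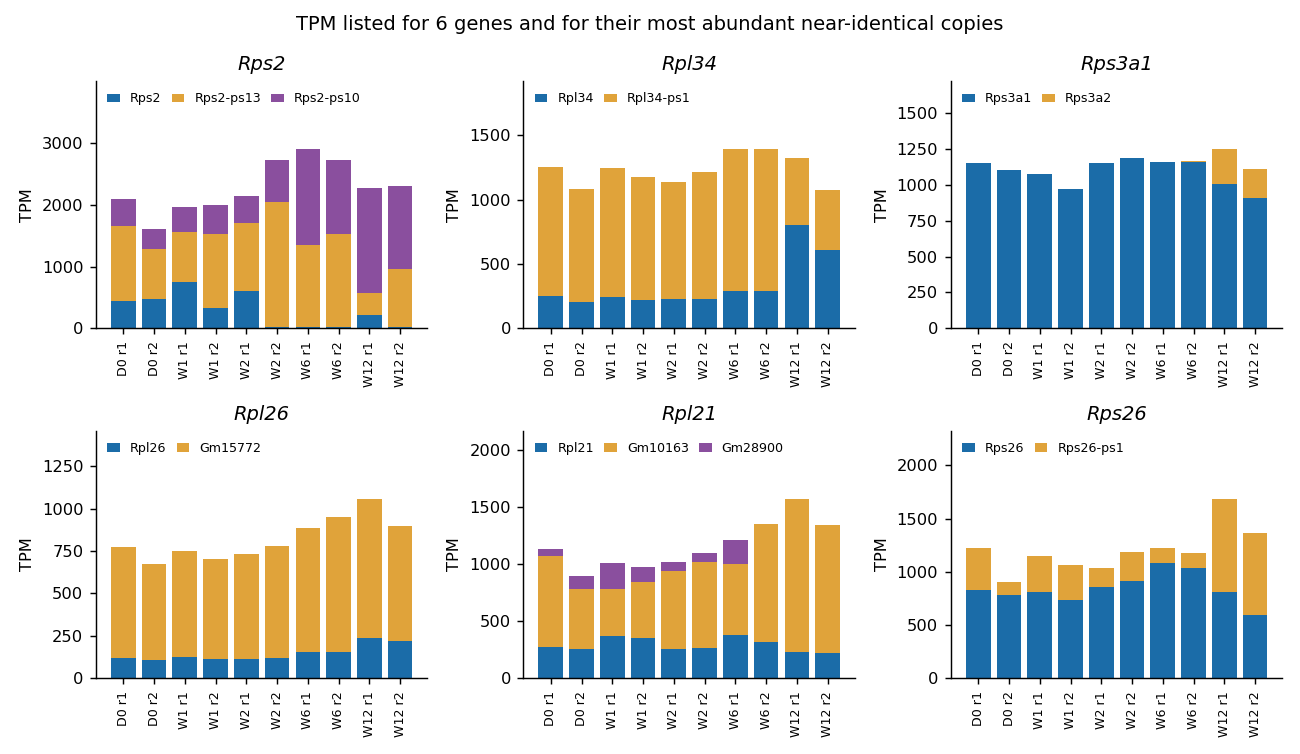
Stacked bars of TPM (vertical axes, from 0) in each library (horizontal axes, timepoint and replicate) for *Rps2*, *Rpl34*, *Rps3a1*, *Rpl26*, *Rpl21* and *Rps26* (blue) and the most abundant of their near-identical copies (yellow and purple). The blue part of *Rps2* is 21.3 and 25.7 TPM at W6 and that of *Rpl34* is 804 and 609 at W12, while the full bars vary far less.

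Other genes kept their direction with a smaller change once copies were added. *Rpl26* went from 117 and 106 TPM at D0 to 238 and 220 at W12, a change of 1.04 ± 0.12 (limma adjusted *P* = 0.000386), and its sum, of which it held 17.8%, changed by 0.43 (limma adjusted *P* = 0.0387). *Rpl5* had 8.86 and 5.49 TPM at D0, 20.95 and 16.2 at W6, and 16.3 and 19.0 at W12, beside 451 and 331, 548 and 656, and 631 and 628 for *Gm15500*. Its change at W12 was 1.22 as listed and 0.72 summed (limma adjusted *P* = 0.00902). *Rpl27* had 554 and 405 TPM at D0, 808 and 823 at W6, and 876 and 852 at W12, and its changes of 0.78 and 0.87 became 0.59 and 0.57. For *Rps27*, whose row held 17.03% of its sum beside *Rps27rt*, 0.70 at W12 became 0.12 (limma adjusted *P* = 0.592). *Rpl12* was the reverse case. Its row did not pass, with 35.5 and 27.2 TPM at D0 and 29.8 and 37.1 at W6 (0.09), but summed with copies such as *Gm10275*, which had 620 and 545 TPM at D0 and 787 and 903 at W6, it rose by 0.52 at W6 (limma adjusted *P* = 0.0251) and 0.47 at W12 (limma adjusted *P* = 0.0292). *Rps12l1*, whose sequence is wholly that of *Rps12*, had 8.6 and 15.7 TPM at D0, 0 and 42.1 at W1, 50.4 and 51.1 at W2, 65.5 and 48.7 at W6, and 10 and 0 at W12, so that it was listed at 0 in 1 library each of W1 and W12. *Rpl30*, with 434 and 282 TPM at D0 and 244 and 618 at W6, had sums of 768 and 752 and of 1002 and 916. The sum of *Rpl5* still rose at W12 without D0 replicate 2 (0.49, limma adjusted *P* = 0.0314). Those of *Rpl26* at W12 (0.33), of *Rpl27* at W6 (0.41) and W12 (0.39) and of *Rpl12* at W6 (0.42) and W12 (0.37) then did not pass, with limma adjusted *P* of 0.119, 0.0730, 0.0660, 0.0854 and 0.0965.

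With copies added, 80 genes were compared. None passed at W1 or W2, with 1 and 0 at an unadjusted *P* under 0.05 in limma, 11 rose at W6 and 16 at W12, and none fell, against 10.2% and 16.1% of all rows at W1 and W2, 32.8% at W6 (18.6% higher and 14.3% lower) and 43.4% at W12 (18.1% higher and 25.4% lower). The 11 and 16 became 2 rises at W6 and 3 rises and 1 fall at W12 without D0 replicate 2, and the calls numbered 28 and 33 without D0 replicate 1, 5 and 2 without W6 replicate 1 and replicate 2, and 1 and 10 without W12 replicate 1 and replicate 2. After the length and GC correction, 2 sums rose and 28 fell at W12, against 16.8% and 21.8% of all rows. Of the 10 genes called as listed at W6, 8 were also called with copies, *Rps2* in the opposite direction, and of the 20 called at W12, 12 were. Medians of the sums were 0.26 at W6 and 0.29 at W12, or 0.15 and 0.19 without D0 replicate 2. The 37 genes that held at least 95% of their own sum had medians of 0.27 at W6 and 0.29 at W12 and ranged from −0.17 to 0.67 and from −0.43 to 0.70. Of these, 4 rose at W6 (*Rpl38*, *Rpl6* and *Rplp2* among them) and 5 at W12 (*Rpl38*, *Rpl6*, *Rpl24* and *Rpl22* among them). These rises too were smaller without D0 replicate 2. The change at W6 was then 0.44 for *Rpl38* and 0.38 for *Rplp2*, and that at W12 was 0.45 for *Rpl6*. Which of the genes named still passed without that library is given with each gene above.

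**Figure D4:**
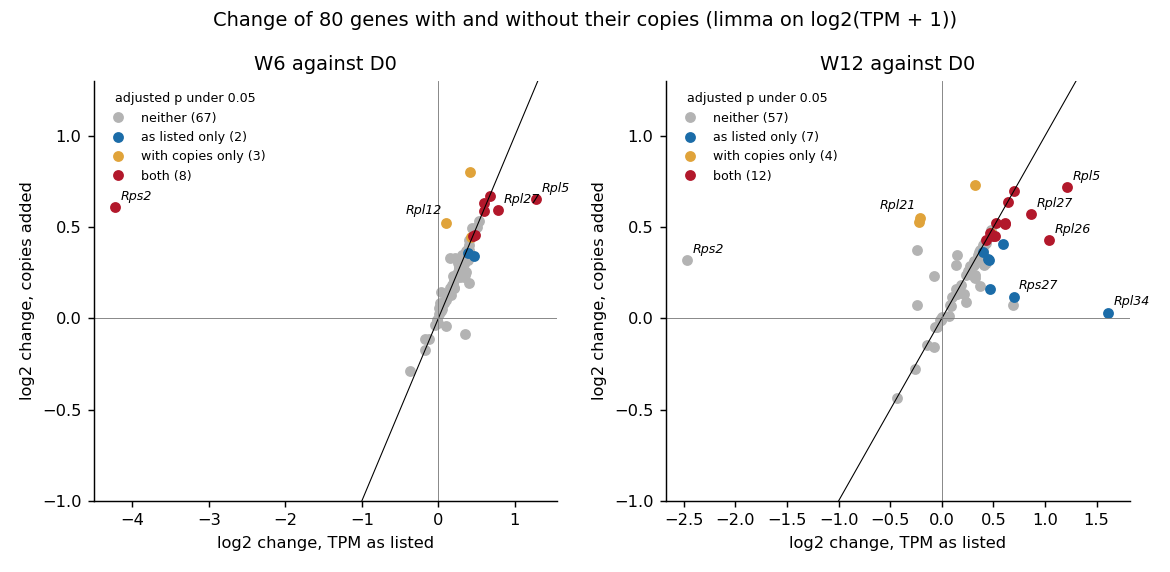
Log2 change of 80 genes as listed (horizontal axis) and with copies added (vertical axis) at W6 (left) and W12 (right) against D0, coloured by whether limma's adjusted *P* was under 0.05 in either fit or both, with a line of equality. Most points lie near the line, and *Rps2* (−4.23 against 0.61 at W6, −2.47 against 0.32 at W12) and *Rpl34* (1.61 against 0.03 at W12) lie farthest from it.

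Ribosomal protein mRNAs are short, so their changes were set beside those of other short coding genes. The coding sequences of the 79 coding members ran from 75 to 1257 bases without the stop codon, with a median of 453. Over the other coding genes, the median log2 change at W12 was 0.50 up to 300 coding bases (306 genes), 0.37 from 300 to 600 (1378 genes), 0.11 from 600 to 900 (1644 genes), −0.07 from 900 to 1500 (3236 genes) and −0.42 above 1500 (4975 genes). For members in the first 4 bins it was 0.36, 0.34, 0.27 and 0.19 (10, 47, 19 and 3 genes). Thus in the bin that held most members, the 300 to 600 base bin, their median was close to that of other genes, at W6 as at W12 (0.27 beside 0.32). In that bin 23.4% of members and 35.9% of other genes rose at W12, and up to 300 bases 20% and 41.2% did. The order was the reverse from 600 to 900 bases, at 31.6% and 25.5%, and from 900 to 1500 bases none of the 3 members and 17.4% of other genes rose. Across genes, which are not independent replicates and share the libraries, Spearman's rho between coding length and change at W12 was −0.35 for the 11539 other coding genes and −0.13 for the 79 members. At W1 it was 0.01 and −0.10. The relation of the members' median to this length trend was not tested.

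**Figure D5:**
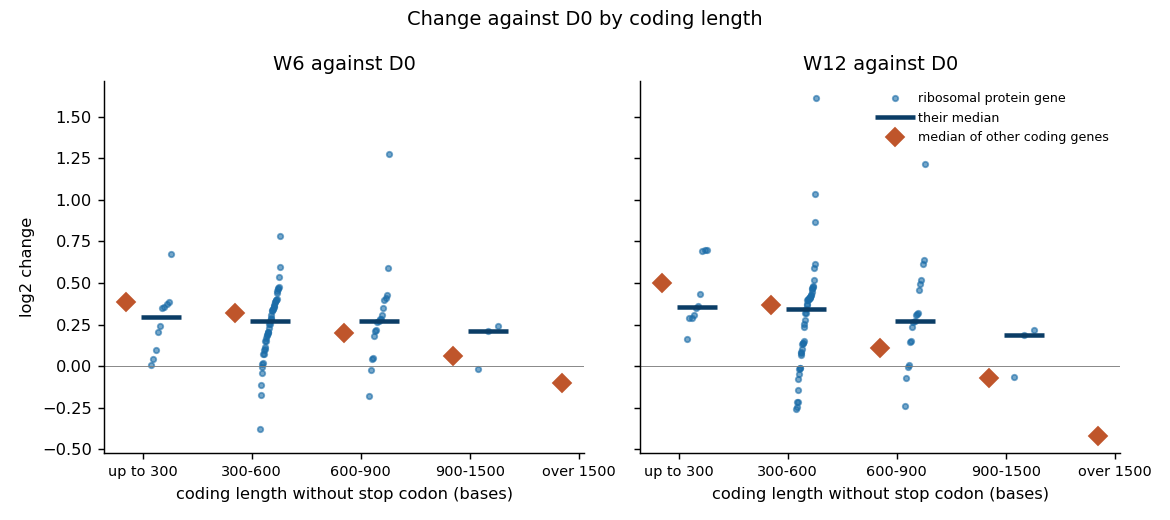
Log2 change against D0 (vertical axis) at W6 (left) and W12 (right) by coding length in bases (horizontal axis, 5 bins) for single ribosomal protein genes (small points), their median (bars) and the median of the other coding genes (diamonds). Diamonds descend from 0.50 to −0.42 across the bins at W12, and the bars lie near them in the 300 to 600 base bin. *Rps2*, at −4.23 and −2.47, is outside the drawn range.

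The starts of the genes were read from the RefSeq promoter table (GRCm38.p6), which matched 59 of 82 members. A TOP tract, here a C followed by at least 4 pyrimidines that begins within 5 bases of the listed start, was found in 29 of these, or 49.1%, against 21.2% of 27025 genes. The windows below show 12 bases before the start and 18 from it on, tract in capitals. Shown are genes with a change past the threshold that had a tract (*Rpl38*, *Rps6* and *Rplp2*) and the paralog *Rpl22l1*. Also shown are *Rpl6*, *Rps13* and *Rpl26*, with a change past the threshold but no tract beginning within 5 bases of the start.
Rpl38: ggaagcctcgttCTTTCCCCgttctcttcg
Rps6: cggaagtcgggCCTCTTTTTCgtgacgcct
Rplp2: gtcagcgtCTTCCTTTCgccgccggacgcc
Rpl6: tcacctcccgtcattgcttatagaccggaa
Rps13: agcaaacgtcggtgagtggcgtcacttcct
Rpl26: gcggcaacttacagaaccggaagtcgcgtg
Rpl22l1: cggcgcaagcccgttCTCTTCCCacggctg
They lie at chr11:114668568-114668597 (plus), chr4:86857350-86857379 (minus), chr7:141447639-141447668 (plus), chr5:121204489-121204518 (plus), chr7:116334173-116334202 (minus), chr11:68901554-68901583 (plus) and chr3:28805496-28805525 (plus). A tract that begins farther from the start was not counted, be it inside or beyond the printed window. The windows of *Rpl6* and *Rps13* hold such runs (cctccc and cttcct) farther from the start. Absence here says only that no tract begins within 5 bases of the listed start. In the 250 bases before the start, on both strands, CCGGAAG, a core of ETS-family sites, was found in 28.8% of members and 7.83% of genes, GGGCGG, the GC box, in 52.5% and 35.4%, CCATNTT, a YY1 core, in 23.7% and 14.2%, TATAAA in 6.78% and 14.3%, the E-box CACGTG in 8.47% and 6.86%, and AACAAT, a core of SOX sites, in 1.69% and 10.9%. A match is a description of the sequence and not a bound site.

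The wider machinery of protein synthesis was read from the same fit, in which 18.3% of all genes were higher and 14.1% lower at W6, and 17.9% higher and 25.1% lower at W12. Coding length, with which changes at W6 and W12 varied among other coding genes, was not taken into account for these lists. Of 78 mitochondrial ribosomal protein genes, which serve the separate ribosome of that organelle, 42 rose at W6 and 34 at W12 and 0 fell, with medians of 0.60 and 0.54. Without D0 replicate 2 those counts were 10 and 12, with 1 fall at W12, and the medians 0.36 and 0.26. *Mrpl18*, *Mrpl34* and *Mrpl20* led at W12 (1.25, 1.15 and 1.07), and without that library *Mrpl18* did not pass (0.51, limma adjusted *P* = 0.0512) while the others did (0.59 and 0.75). Of 76 ribosome biogenesis genes 22 rose and 3 fell at W6, and 22 rose and 7 fell at W12 (medians 0.32 and 0.12), or 7 and 0 at W6 and 8 and 6 at W12 without D0 replicate 2 (medians 0.29 and 0.0788). *Nhp2*, of the pseudouridylation snoRNPs, rose at W12 by 1.45 from 172 and 118 TPM to 374 and 410, *Npm1*, which encodes nucleophosmin, rose by 1.03, and *Taf1c*, of the RNA polymerase I initiation complex, fell by 1.26. Among 21 translation factors and other genes with TOP mRNAs 9 rose and 3 fell at W12 (median 0.33), with *Vim* at 5.37, *Nap1l1* at 1.10 and the elongation factor *Eef2* falling by 0.89. Of 29 other initiation and elongation factors 13 rose and 1 fell at W6 (median 0.48, or 0.27 without D0 replicate 2). At W12, 8 of the 29 rose and 3 fell (median 0.32), among them *Eif1* (−1.07), *Eif2b3* (1.03) and *Eif2s2* (0.96). The first of these lists, without D0 replicate 2, had 5 rises and 2 falls at W12 (median 0.28) and the other 4 and 1 (median 0.17). Of 8 snoRNA host genes with TOP RNAs 5 rose and none fell at W12 (median 0.46), *Snhg5* (1.12) and *Snhg8* (0.87) at the front, and without D0 replicate 2 the rises numbered 2 and the median was 0.33, *Snhg8* not passing (0.57, limma adjusted *P* = 0.114). Of 26 regulators of ribosomal protein synthesis 3 rose and 4 fell at W6, and 1 rose and 10 fell at W12 (medians −0.0111 and −0.37), or 1 and 2 at W6 and 1 and 6 at W12 without that library (medians −0.0545 and −0.42). *Myc*, a known activator of ribosomal protein and rRNA genes, had 697 and 1160 TPM at D0, 413 and 168 at W1, 413 and 224 at W2, 130 and 110 at W6, and 82.8 and 131 at W12 (−3.10, limma adjusted *P* = 0.00118), and *Eif4ebp2* fell by 2.07 while *Eif4ebp1*, both of them repressors of cap-dependent translation, rose by 1.73. *Myc* is itself an immediate-early gene, a class whose summed TPM was highest at D0. Without D0 replicate 2 the W12 changes of *Nhp2* (1.18), *Npm1* (0.96), *Taf1c* (−1.22), *Vim* (5.48), *Nap1l1* (0.79), *Eef2* (−0.74), *Eif1* (−0.92), *Eif2b3* (0.82), *Eif2s2* (0.86), *Snhg5* (0.86), *Myc* (−2.73), *Eif4ebp2* (−1.70) and *Eif4ebp1* (1.44) still passed. Proliferation markers, whose summed TPM was 482 and 942 at D0 and 1131 to 1420 at W6 and W12, had 5 of 10 genes rising at W6 and 3 at W12 (medians 0.88 and 0.53), or 3 and 2 without that library (medians 0.42 and 0.10).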

How the data were processed

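RNA of sorted EpdSCs was sequenced in 10 libraries (paired reads), and the deposited table holds TPM. According to the labels and methods, the authors quantified transcripts with Salmon (1.4.0) against GENCODE M24 (GRCm38) with the transgene added and summed them per gene with Tximport (1.12.3). TPM are shares of a library, so depth is unknown and no counting interval is given. The 4 placode libraries were not analysed here, since their file holds the authors' own DESeq2 fold changes and p-values.

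TPM were tested with limma (3.58.1, R 4.3.3) on log2(TPM + 1) over the 13110 genes averaging 1 TPM or more, all 10 libraries sharing the spread, eBayes with trend, Benjamini-Hochberg adjustment, two-sided. The method was tested on simulated data. Positions, lengths and GC are from GENCODE M21 of the same build, which matched 54097 of 54332 rows. Copies were found with blastn (2.17.0) on the same strand, at 90% identity over at least 50% of the copy and 100 bases, and their TPM added to the member, a step chosen after seeing the data.

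Members and gene lists were chosen with earlier results of these data known, so no list is tested. Genes are named by rule: the P stalk, fusion and paralog lists; the 3 largest changes each way per contrast with D0; the 3 highest and 3 lowest means; calls against the main direction; the 5 smallest F-test *P*; the 3 widest replicate gaps; the 3 largest called changes of each related list at W12; and 8 well-known members. Others called or shifted by copies were named after their values were seen. Alternatives were other pseudocounts, filters, scalings, moderation and samples, a length and GC correction, and added copies. Some genes are not reported here by name, though they count among the members. The labels call replicates biological, without naming animals.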

Additional observations from a re-analysis of the deposited data

How the results depend on the processing

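The direction of the members' medians depended on scaling and on the length and GC correction, and the counts of calls depended on D0. Under median-ratio scaling the median at W1 was −0.0571, at W12 0.41 and from W6 to W12 0.21. The counts were 37 at W12 and 26 in the F test, and the summed TPM relative to D0 was 0.936 at W1 and 1.25 at W12. This scaling moved the median of all genes from 0.09 to 0.0042 at W1. From W6 to W12 it moved that median from −0.16 to −0.01. Quantile normalization gave medians of 0.16 at W6, 0.13 at W12 and −0.0132 from W6 to W12 (0.03 on the main scale) and counts of 4 from W2 to W6 and 15 at W12 (13 higher, 2 lower). The length and GC correction gave medians of −0.0764 at W1, −0.0723 at W2, −0.11 at W6, −0.26 at W12, −0.0574 from W2 to W6 and −0.11 from W6 to W12, and splits of calls of 2 higher and 10 lower at W6 and 4 higher and 25 lower at W12, with 1 call at W1 and 1 at W2. It turned *Rpl26* to −0.0525 at W6 and, at W12, *Rpl10* to −0.16, *Rpl22* to −0.39, *Rpl23* to −0.15, *Rpl24* to −0.24, *Rpl31* to −0.0058, *Rps13* to −0.19, *Rps23* to −0.17, *Rps27* to −0.0757 and *Rps6* to −0.0055. *Rps2* at W6 turned to 0.61 both with -ps rows and with all copies added. With -ps rows added the counts were 3 from W6 to W12 and 11 in the F test, and with all copies 0 from W2 to W6, 0 from W6 to W12 and 10 in the F test. Testing all genes above 0 gave 4 at W6, 0 from W2 to W6 and 7 in the F test. A pseudocount of 0.1 gave 1 from W2 to W6, and eBayes without trend gave 0 there and 11 in the F test. Fitting only the 4 libraries of a comparison gave 1 at W2, 2 at W6, 5 at W12, 0 from W2 to W6 and 2 from W6 to W12. An absolute log2 change of at least 1 left 2 at W6, 4 at W12, 0 from W2 to W6, 2 from W6 to W12 and 4 in the F test. Leaving out 1 library gave counts of 0 to 1 at W1, 0 to 2 at W2, 2 to 28 at W6, 7 to 38 at W12, 0 to 1 from W2 to W6, 3 to 4 from W6 to W12 and 8 to 32 in the F test, and medians of −0.0817 to 0.14, 0.0054 to 0.24, 0.16 to 0.35, 0.21 to 0.41, 0.11 to 0.20 and −0.0407 to 0.14. A timepoint left with 1 library was assumed to vary like the others. The cause of these changes was not tested. Of 447 values of single genes under the alternatives, 305 kept direction and side of the threshold, 130 kept only the direction and 12 turned.

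Replicate numbers were not taken to pair the libraries, since same-numbered libraries deviated together with correlations of −0.129 to 0.0934 over all genes and of −0.40 to 0.361 over the members. With the replicate block the counts were 8 at W6, 16 at W12, 0 from W2 to W6 and 12 in the F test. With the numbers crossed, 0 passed at W1, 9 at W6 and 5 from W6 to W12. Depth is unknown in a TPM table, and 2 libraries a timepoint limit the precision of every value.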
